A study of Homo sapiens with 13 samples.

Results

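The genes examined here are 10 genes of antigen presentation by MHC class I, namely B2M, HLA-E, HLA-F, TAP1, TAP2, TAPBP, NLRC5, ERAP1, ERAP2 and CALR, out of 18568 genes with a probe set of their own. A member was read from the probe sets annotated to its symbol alone, and where there were several, from the probe set with the highest mean over the 13 arrays. Gene expression was measured on Affymetrix oligonucleotide arrays in 13 established human lines of acute lymphoblastic leukemia (ALL), 1 array per line. The 6 lines of B-cell precursor ALL (BCP-ALL) were 697, Nalm6, REH, RS4,11, Nalm16 and Nalm30. The 7 lines of T-cell ALL (T-ALL) were CCRF-CEM, Jurkat, Molt4, HPB-ALL, ALL-SIL, P12-ICHIKAWA and TALL-1. All lines were grown in RPMI-1640 with fetal bovine serum and received no drug, so no sample was exposed to methotrexate or to interferon. Values are on a log2 scale with a floor of 4, and a value under 5 is called near the floor. No line was measured more than once, so p-values rest on the variation among lines, whose number limits the precision. Each line is a cultured cell population, in which fewer expressing cells and less RNA per cell cannot be told apart.

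Class I molecules show peptides from inside the cell to cytotoxic T cells and natural killer cells. A heavy chain pairs with beta-2 microglobulin, the product of B2M, in the endoplasmic reticulum, where the peptide transporter made of TAP1 and TAP2 delivers peptides cut by the proteasome. Tapasin (TAPBP) and calreticulin (CALR) hold the empty heavy chain at the transporter, and the aminopeptidases ERAP1 and ERAP2 trim peptides to length. HLA-E and HLA-F are non-classical heavy chains, and HLA-E is the ligand of the NKG2A receptor of natural killer cells. NLRC5 is a transactivator of class I genes, and interferon raises the transcription of most genes of this pathway. Tumor cells, leukemias included, can lose class I presentation through any of these steps.

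Promoter sequence was taken from RefSeq (GRCh38.p14) as windows of 300 bases, 250 before an annotated start of a gene and 50 after it. Of the 10 members, 8 had at least 1 such window. The windows were searched on both strands for the letters GAAA followed, after 2 bases of any kind, by GAAA again, a core shared by interferon-stimulated response elements. At least 1 window of 7 of the 8 members held a match, CALR being without one, and 7 of their 11 windows did, against 3.57% of 35116 windows of all genes. The following stretches of 30 bases show the first match of each, in capitals, on the strand of the gene, so that a match on the opposite strand reads TTTC, 2 bases and TTTC.
B2M, chr15:44711363-44711392, plus strand: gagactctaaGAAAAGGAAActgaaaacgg
HLA-F, chr6:29723268-29723297, plus strand: ctccccagagTTTCTCTTTCtctcccaacc
TAP1, chr6:32853819-32853848, minus strand: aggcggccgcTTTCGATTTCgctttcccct
TAP2, chr6:32838778-32838807, minus strand: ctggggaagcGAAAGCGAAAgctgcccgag
TAPBP, chr6:33314079-33314108, minus strand: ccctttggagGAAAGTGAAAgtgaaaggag
ERAP1, chr5:96807924-96807953, minus strand: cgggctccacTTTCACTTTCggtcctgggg
ERAP2, chr5:96876460-96876489, plus strand: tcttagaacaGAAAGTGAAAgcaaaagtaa
Distances were counted from the start on which the window was built. The match lay 144 bases before it in B2M, 156 in HLA-F, 134 in TAP1, 58 in TAP2, 20 in TAPBP and 30 in ERAP2, and just after it in ERAP1. For ERAP1 (window 96807896 to 96808195) and ERAP2 (window 96876250 to 96876549) that start lies inside the RefSeq interval of the gene. The ERAP2 window at the outer start of the gene held no match. TAP1, ERAP1 and ERAP2 have 2 windows each, and in each of them only 1 held the letters. The shorter letters CCAAT, the box bound by NF-Y, were in a window of 5 of the 8 members and in 34.6% of all windows. These matches are a description of the letters and do not show that a factor binds there.

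In the fit of all 13 lines given below, HLA-F passed the test between lineages and B2M did not. The 250 bases before the start of these 2 genes are given with both kinds of match in capitals.
HLA-F, chr6:29723184-29723433, plus strand: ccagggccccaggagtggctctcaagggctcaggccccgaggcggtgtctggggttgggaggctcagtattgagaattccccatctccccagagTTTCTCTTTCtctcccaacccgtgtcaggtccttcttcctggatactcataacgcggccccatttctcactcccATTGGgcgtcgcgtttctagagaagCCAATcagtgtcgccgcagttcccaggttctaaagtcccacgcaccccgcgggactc
B2M, chr15:44711267-44711516, plus strand: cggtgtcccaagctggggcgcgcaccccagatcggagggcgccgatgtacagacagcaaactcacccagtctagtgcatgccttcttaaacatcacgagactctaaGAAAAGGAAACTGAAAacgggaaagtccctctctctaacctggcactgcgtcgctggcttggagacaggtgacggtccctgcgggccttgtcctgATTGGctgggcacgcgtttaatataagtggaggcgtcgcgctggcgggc
Both stretches hold the interferon-type letters and a CCAAT box, HLA-F with 1 match on each strand of the latter. In B2M, 2 overlapping matches of the interferon-type letters form 1 longer run.

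The lineage markers went with the labels. Of 7 B-lineage markers measured, 6 were higher in every BCP-ALL line than in any T-ALL line. Of 8 T-lineage markers, all 8 were under 5 in every BCP-ALL line and 6 were higher in every T-ALL line than in any BCP-ALL line. CD2 and CD28 overlapped, being near the floor in some T-ALL lines. The summed level of 7 myeloid markers reached 12.2 in BCP-ALL, owing to MPO at 12.11 in REH and LYZ at 11.2 in Nalm6, and ran from 8.04 to 8.53 in T-ALL. The arrays of P12-ICHIKAWA and TALL-1 were the most alike (r = 0.993 over all probe sets), and Nalm16 and Nalm30 had many genes with low values, as given below. Where leaving out Nalm16 and Nalm30 ended a call or moved a difference by over 1.5 times, the value without them is given.

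B2M was high in every line and was lost in none. It lies on chromosome 15 (44711517 to 44718145, GRCh38.p14). Its lowest, median and highest log2 values were 12.15, 12.4 and 12.54 in BCP-ALL and 11.93, 12.04 and 12.52 in T-ALL. The whole range over the 13 lines was 0.609 log2 units, the smallest among the members, with P12-ICHIKAWA lowest and REH highest. The mean was 0.24 lower in T-ALL (95% confidence interval of T-ALL minus BCP-ALL from -0.54 to 0.05), which did not pass limma's test (adjusted p = 0.277). The two-sided exact permutation test gave an unadjusted p of 0.0408 for it, and 25.7% of all genes tested had an exact p of 0.05 or less. That test counts P12-ICHIKAWA and TALL-1, the lowest lines in B2M, as separate lines though their arrays were nearly alike. It was not run with the pair averaged. A second B2M probe set, 201891_s_at, read 11.97 to 12.51 over the lines, and the third, 232311_at, was near the floor in 12 of them.

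**Figure D1:**
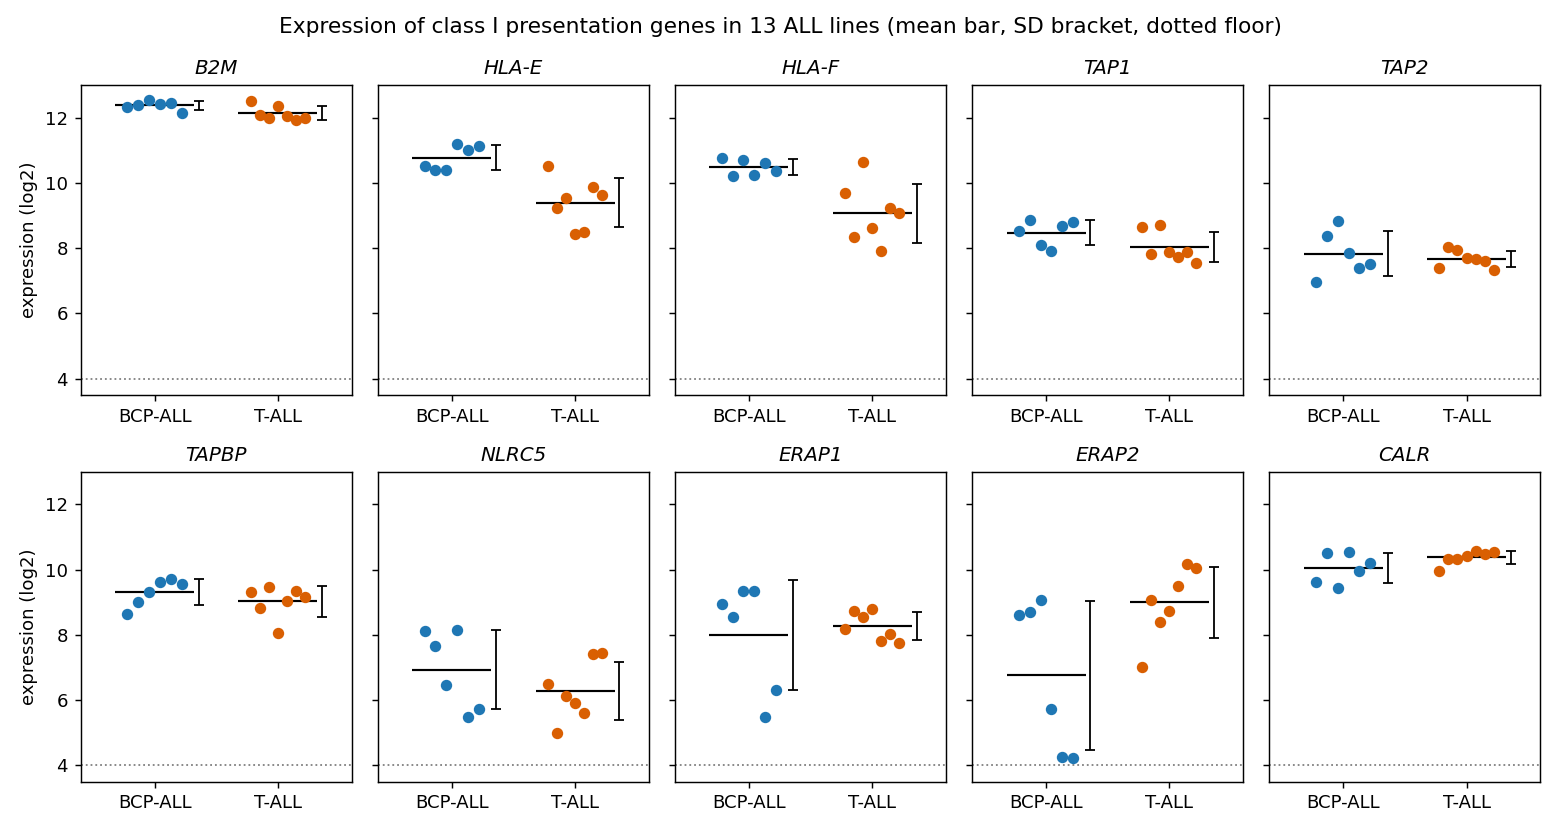
Expression of the 10 members (log2, vertical axis from 3.5 to 13, dotted line at the floor of 4) in 6 BCP-ALL lines (blue) and 7 T-ALL lines (orange). Each point is 1 line, the bar is the mean and the bracket is the SD. B2M stays between 11.93 and 12.54, whereas ERAP2 spans 4.23 to 10.16.

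Both heavy chains among the members were lower in T-ALL, and they were the only members of the 10 that passed the test between lineages. Of 12560 genes that passed the filter on low values (above the median of the array in at least 3 lines), 958 passed limma's test at an adjusted p of 0.05, or 7.63%, and 461 were lower in T-ALL, or 3.67%. All 10 members passed the filter, 2 were called lower in T-ALL and 0 higher. The median difference of the members was -0.26 on the log2 scale, against 0.03 over all genes tested. On the probe sets used, no member had lineages that did not overlap, as 3.69% of all genes tested did. The count of 958 was 628 without P12-ICHIKAWA and 614 without TALL-1, and both members were called under quantile normalization and with the arrays centred on their medians.

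HLA-E (chromosome 6, 30489509 to 30494194) had a lowest, median and highest value of 10.39, 10.76 and 11.19 in BCP-ALL. In T-ALL these were 8.42, 9.55 and 10.53. Of the 7 T-ALL lines, 6 were below the lowest BCP-ALL line, and only ALL-SIL at 10.53 overlapped with BCP-ALL. Jurkat at 8.42 and Molt4 at 8.5 were the lowest, followed by CCRF-CEM at 9.22. The means were 10.77 ± 0.38 (SD, n = 6) and 9.39 ± 0.75 (SD, n = 7), so that HLA-E was 1.38 log2 units lower in T-ALL, or 2.61-fold (SE 0.323, limma adjusted p = 0.0192). The call was kept when any 1 line was left out, and it was lost without Nalm16 and Nalm30 (difference -1.24, adjusted p = 0.0884).

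HLA-F (chromosome 6, 29723434 to 29738532) showed a wider spread in T-ALL. Its lowest, median and highest values were 10.2, 10.48 and 10.77 in BCP-ALL. In T-ALL they were 7.91, 9.07 and 10.64. HPB-ALL at 10.64 was within the BCP-ALL range, ALL-SIL followed at 9.68, and Molt4 at 7.91 and CCRF-CEM at 8.33 were the lowest. HLA-F was 1.41 log2 units lower in T-ALL, or 2.65-fold (SE 0.362, limma adjusted p = 0.0308). This call was lost when 697, Nalm16, Nalm30, CCRF-CEM, Jurkat, P12-ICHIKAWA or TALL-1 was left out (adjusted p from 0.0552 to 0.0615), while the difference stayed between -1.44 and -1.29 in these fits. It was also lost without both Nalm16 and Nalm30 (difference -1.41, adjusted p = 0.0944) and with P12-ICHIKAWA and TALL-1 averaged (adjusted p = 0.0581).

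The probe sets of these heavy chains did not give the same size of difference. The probe sets used for HLA-E (200905_x_at) and HLA-F (221875_x_at) carry the suffix _x_at, by which the manufacturer marks probes that can also match other sequences, and class I heavy chains are close in sequence. On the second _x_at probe set of HLA-E, 217456_x_at, the difference was -1.47 and the lineages did not overlap. There T-ALL was at most 10.01, in ALL-SIL, and BCP-ALL at least 10.13, in Nalm6. HLA-E has 1 probe set without this suffix, 200904_at, with a mean of 9.01 in BCP-ALL and 8.26 in T-ALL. On it HLA-E was 0.75 lower in T-ALL and did not pass (limma adjusted p = 0.341 when _x_at probe sets were left out), and with the mean of its 3 probe sets the difference was -1.2 (adjusted p = 0.0553). It read 9.99 in ALL-SIL, the highest line, and 6.87 in Jurkat and 7.05 in Molt4, the lowest lines, so the low values of Jurkat and Molt4 appeared on all 3 probe sets. Within BCP-ALL it read 7.78 in Nalm6, below 5 of the 7 T-ALL lines.

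The HLA-F probe set without the suffix, 221978_at, was near the floor in 8 of 13 lines, and on it HLA-F was 0.68 lower in T-ALL (limma adjusted p = 0.169 when _x_at probe sets were left out). Its highest values were 5.82 in 697, 5.69 in REH, 5.54 in HPB-ALL, 5.52 in Nalm6 and 5.28 in RS4,11. HPB-ALL was thus the only T-ALL line with a value of 5 or more on this probe set, and it was also the T-ALL line with the highest value on the _x_at probe set. Nalm16 and Nalm30, at 10.61 and 10.36 on the _x_at probe set, read 4.34 and 4.46 on 221978_at. How far transcripts of other heavy chains add to the _x_at values was not tested.

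**Figure D2:**
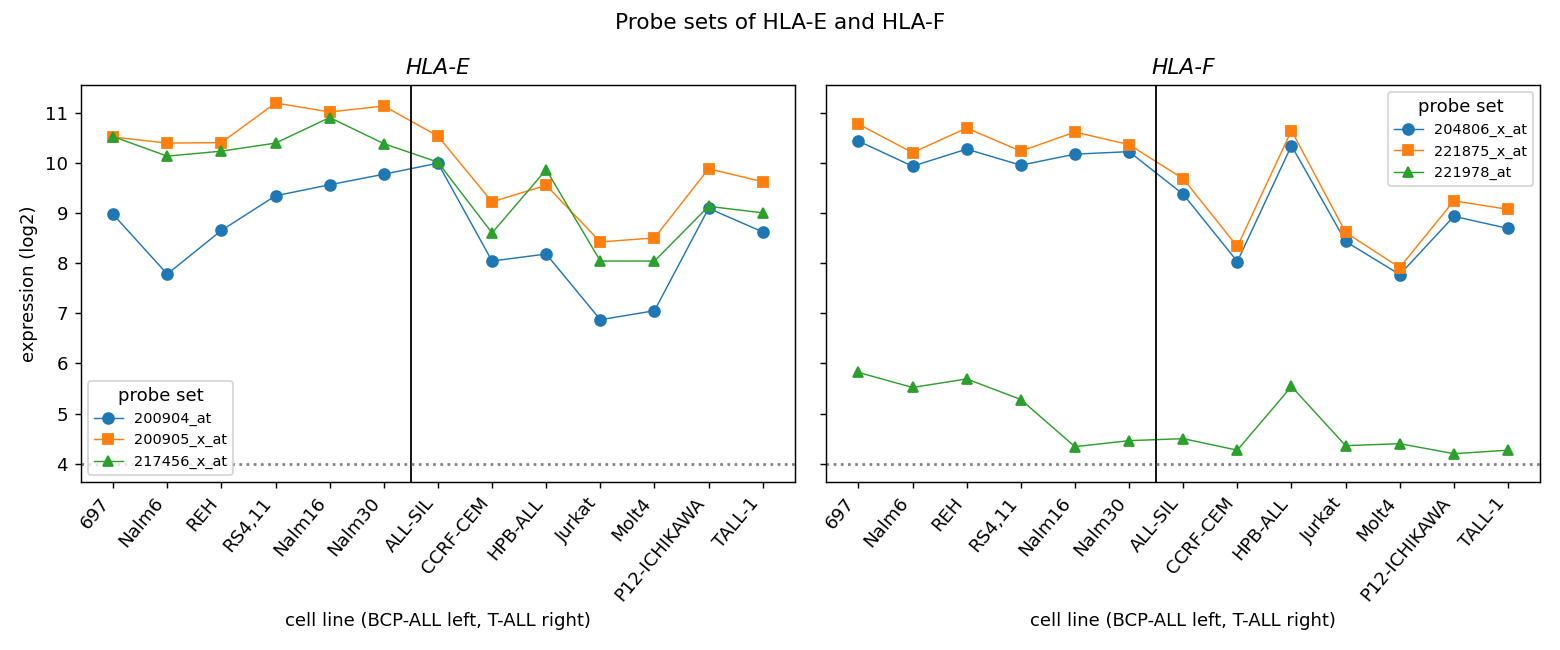
Expression (log2) on the 3 probe sets of HLA-E (left) and of HLA-F (right) in each of the 13 lines, BCP-ALL left and T-ALL right of the black line, with the floor of 4 dotted. The 2 _x_at probe sets of each gene run close together, while 200904_at of HLA-E overlaps between lineages and 221978_at of HLA-F lies near the floor in 8 lines.

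Other heavy chains were read in the same lines. Of the classical chains, HLA-B ran from 11.58 to 12.01 in BCP-ALL and from 9.24 to 11.66 in T-ALL. HLA-B was 1.53 lower in T-ALL (SE 0.333, limma adjusted p = 0.0131), and HLA-C was 1.31 lower (SE 0.312, adjusted p = 0.021). HLA-G, a non-classical chain, was 1.33 lower (SE 0.307, adjusted p = 0.0181). In HLA-B, HLA-C and HLA-G alike, 6 of 7 T-ALL lines were below the lowest BCP-ALL line, and HPB-ALL was the T-ALL line inside the BCP-ALL range. Without Nalm16 and Nalm30, HLA-B kept its call (adjusted p = 0.0464), and HLA-C and HLA-G lost theirs (adjusted p = 0.0711 and 0.062). All probe sets of these 3 genes carry the suffix _x_at.

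The peptide transporter was present in every line, and neither subunit passed the test between lineages. TAP1 (chromosome 6, 32845209 to 32853704) had a lowest, median and highest value of 7.92, 8.6 and 8.87 in BCP-ALL and 7.53, 7.87 and 8.72 in T-ALL. HPB-ALL at 8.72 and ALL-SIL at 8.66 were apart from the other 5 T-ALL lines, which were at or under 7.87 and below every BCP-ALL line. TAP1 differed by -0.45 (95% confidence interval -0.97 to 0.07, limma adjusted p = 0.254). TAP2 (chromosome 6, 32821831 to 32838739), read from 225973_at, ran from 6.96 in 697 to 8.84 in REH. The whole range on this probe set lay inside BCP-ALL, and T-ALL ran from 7.34 to 8.02. The lowest lines depended on the probe set. On 204769_s_at and 204770_at, Nalm16 (5.7 and 5.43) and Nalm30 (5.73 and 5.37) were lowest, and 697 read 6.68 and 5.55. The remaining probe set, 208428_at, was at most 4.4 in any line. The difference of TAP2 was -0.16 (95% confidence interval -0.74 to 0.43, adjusted p = 0.756). It was 0.05 without REH, -0.33 without 697, -0.05 without Nalm6, -0.1 without TALL-1 and -0.34 without Nalm16 and Nalm30.

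Neither TAPBP nor CALR, whose proteins load peptide, passed the test between lineages. TAPBP (chromosome 6, 33299694 to 33314078) ran from 8.65 to 9.71 in BCP-ALL and from 8.07 to 9.47 in T-ALL, and Jurkat was lowest, 1.25 below the median of the other 12 lines. On a second probe set, 1555565_s_at, Jurkat at 7.73 was next to the lowest line, ALL-SIL at 7.67, and the correlation of the probe sets was weak (r = 0.344 over 13 lines). CALR (chromosome 19, 12938609 to 12944489) ran from 9.44 in REH to 10.58 in Molt4 and had all T-ALL lines at 9.97 or above. TAPBP differed by -0.28 (limma adjusted p = 0.491), by -0.62 on 1555565_s_at (adjusted p = 0.126), by -0.12 without Jurkat and by -0.11 without Nalm16 and Nalm30. CALR, read from an _x_at probe set, differed by 0.33 (95% confidence interval -0.1 to 0.75, adjusted p = 0.312) and by 0.21 without REH. It differed by -0.02 on its second _x_at probe set, 214315_x_at, and by 0.02 on 200935_at, which lacks the suffix. Among 3 partners of this step, 1 passed: PDIA3, the thiol oxidoreductase of the loading complex, was 0.94 lower in T-ALL (SE 0.253, adjusted p = 0.0385), a call that was lost without Nalm16 and Nalm30 (difference -0.95, adjusted p = 0.102). CANX, the chaperone calnexin, differed by 0.01, or by -0.2 without these 2 lines, and TAPBPL, a tapasin homolog, by -0.06, or by -0.03 without them.

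ERAP2 had the lowest single-line values of the 10 members relative to the other lines. The gene lies on the plus strand of chromosome 5 (96875984 to 96919716), within the RefSeq interval of ERAP1 on the minus strand (96760813 to 96935854). In BCP-ALL it was 8.6 in 697, 8.69 in Nalm6 and 9.06 in REH, but 5.72 in RS4,11, 4.27 in Nalm16 and 4.23 in Nalm30. In T-ALL it was 7.02 in ALL-SIL and ran from 8.39 in HPB-ALL to 10.16 in P12-ICHIKAWA in the other 6 lines. Nalm16 and Nalm30 were thus near the floor, 4.43 and 4.48 below the median of the other 12 lines, and RS4,11 was 2.99 below it. Since the floor bounds the values of Nalm16 and Nalm30, these distances may be too small.

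The other probe sets gave the same lines. On 219759_at, Nalm16 and Nalm30 both read 4 and RS4,11 read 4.91, while the highest value was 9.72. On 1554273_a_at Nalm16, Nalm30 and RS4,11 read 4, 4.05 and 4.37, and on 235104_at 4.75, 4 and 4.23, all lower than the remaining 10 lines. ALL-SIL came next on each of them, at 6.4, 5.19 and 5.58. The fifth probe set, 1554272_at, was under 5 in all 13 lines and separates none.

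Between lineages, ERAP2 was 2.23 higher in T-ALL in the means (6.76 ± 2.28 in BCP-ALL, SD, n = 6, and 8.99 ± 1.09 in T-ALL, SD, n = 7), but this did not pass over all genes (95% confidence interval 0.34 to 4.12, limma adjusted p = 0.135). The two-sided exact permutation test over the lines gave an unadjusted p of 0.0478, where 25.7% of all genes tested had 0.05 or less. It counts P12-ICHIKAWA and TALL-1, the highest lines in ERAP2, as separate lines though their arrays were nearly alike. It was not run with the pair averaged, where the difference in limma's fit was 2.04 (adjusted p = 0.225). Without Nalm16 and Nalm30 the difference was 0.98 (adjusted p = 0.514).

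ERAP1 was low in the same pair of lines, with less agreement among its probe sets. ERAP1 was 5.47 in Nalm16 and 6.31 in Nalm30, and it ran from 8.56 to 9.34 in the other 4 BCP-ALL lines and from 7.76 to 8.79 in T-ALL. Nalm16 was 3.08 and Nalm30 2.25 below the median of the other 12 lines. On 214012_at these 2 lines were again lowest, at 4.77 and 4.72, but on 210385_s_at only Nalm16 was lowest, at 5.93, and Nalm30 at 7.2 was above the median of 7.01. The remaining probe sets were near the floor in 12 of 13 lines: on 209701_at Nalm16 and Nalm30 were lowest, at 4.26 and 4.05, and on 214034_at they were highest, at 5.11 and 4.98. RS4,11, low in ERAP2, had the second highest ERAP1 value, 9.33. The lineage difference of ERAP1 was 0.27 (95% confidence interval -1.02 to 1.55, limma adjusted p = 0.816), and it was -0.78 without Nalm16 and Nalm30 (adjusted p = 0.101), -0.24 without Nalm16, -0.07 without Nalm30, 0.46 without 697 and 0.54 without REH or without RS4,11.

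NLRC5, the class I transactivator, varied by 3.17 log2 units over the lines, without a difference between lineages that passed. It lies on chromosome 16 (56989557 to 57083520) and has 1 probe set. In BCP-ALL it was 8.16 in RS4,11, 8.11 in 697, 7.66 in Nalm6, 6.47 in REH, 5.73 in Nalm30 and 5.47 in Nalm16. In T-ALL it was 7.43 in TALL-1 and 7.4 in P12-ICHIKAWA, 5.61 to 6.48 in the next 4 lines, and 4.99 in CCRF-CEM, where it was near the floor. Both lineages thus held lines at either end, and the difference was -0.66 (95% confidence interval -1.81 to 0.5, limma adjusted p = 0.456). It was -1.32 without Nalm16 and Nalm30 (adjusted p = 0.164), -0.42 without 697 and -0.41 without RS4,11. No line was 2 log2 units below the median of the other 12, though Nalm16 was 2.19 below the median of the other BCP-ALL lines.

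Values of 2 log2 units or more below the median of the other 12 lines were called low. There were 6 such values among the 130 of the members, in 3 genes: ERAP2 in RS4,11, Nalm16 and Nalm30, ERAP1 in Nalm16 and Nalm30, and HLA-F in Molt4. Of all 12560 genes, 17.8% had at least 1 low line, against 3 of 10 members. The lines differed in how many genes were low: 10.8% of all genes tested were low in Nalm16, 5.47% in Nalm30, 1.7% in RS4,11 and 1.29% in Molt4, and 5.1% were low in both Nalm16 and Nalm30. In the other 9 lines the share was between 0.852% and 2.76%. The array medians of Nalm16 and Nalm30, 5.05 and 5.09, were the lowest, and the differences between the 3′ and 5′ control probe sets of actin were 0.4 and 0.54 in these lines, against 0.09 to 0.57 in the others. For GAPDH the same difference was 0.21 in Nalm16, the highest of the 13 lines, and 0.1 in Nalm30, against -0.07 to 0.18 in the others. The part of these array-wide low values in the ERAP1 and ERAP2 results was not tested. The other 8 members were not low in Nalm16 or Nalm30, where HLA-E on the probe set used, at 11.01 and 11.13, was above all lines but RS4,11. On 217456_x_at, Nalm30 at 10.38 was below 697 at 10.52, and on 200904_at the highest line was ALL-SIL at 9.99. Without Nalm16 and Nalm30, 2 low values were left, ERAP2 in RS4,11 and HLA-F in Molt4. With _x_at probe sets left out, HLA-F was read from 221978_at, whose median of 4.46 lies too near the floor for any line to be called low. Against the median of the other lines of the same lineage, 7 member values were low. HLA-F in Molt4, 1.25 below that median, was not among them. ERAP2 in ALL-SIL (2.27 below) and NLRC5 in Nalm16 (2.19 below) were. The share of all genes low by this reading is not given here.

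**Figure D3:**
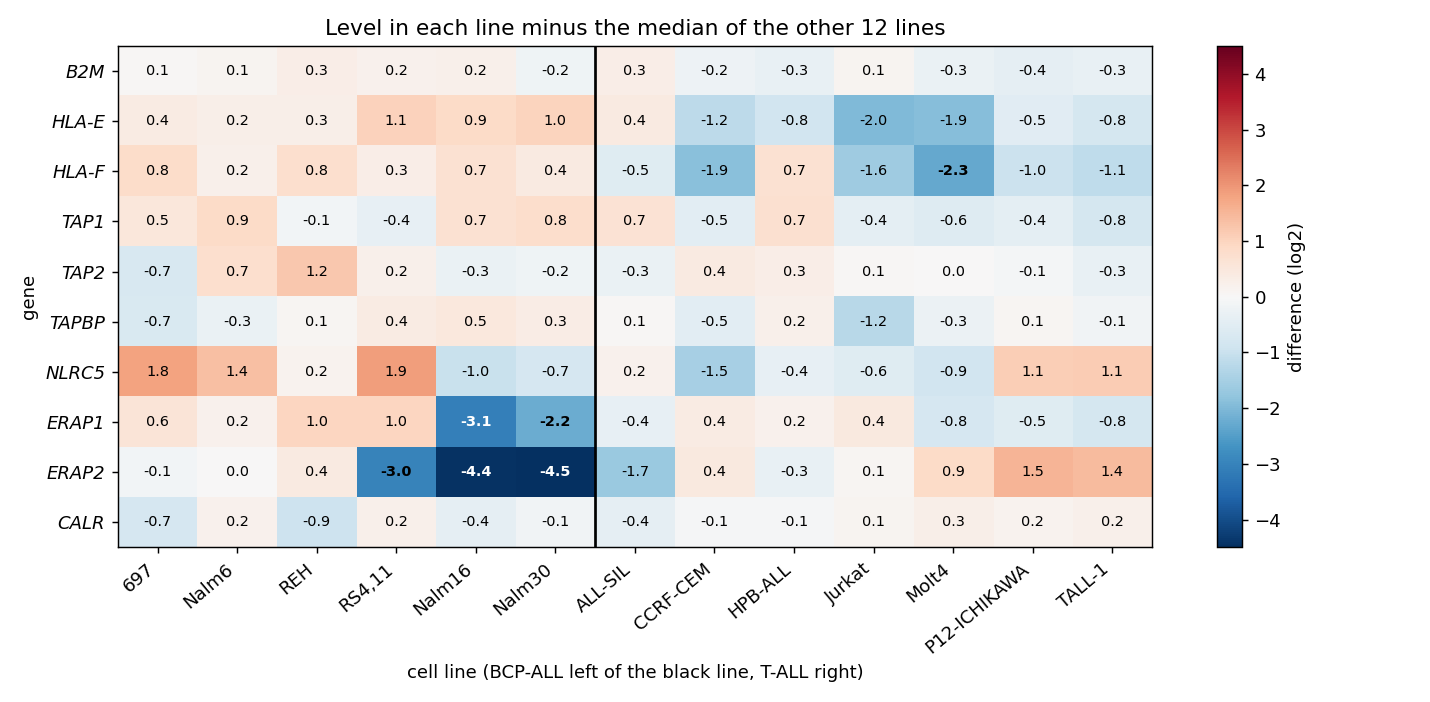
Level of each member (rows) in each line (columns) minus the median of the other 12 lines (log2), BCP-ALL left and T-ALL right of the black line. Values of -2 or below are in bold: ERAP2 in RS4,11, Nalm16 and Nalm30, ERAP1 in Nalm16 and Nalm30, and HLA-F in Molt4 (HLA-E in Jurkat is -1.98).

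**Figure D4:**
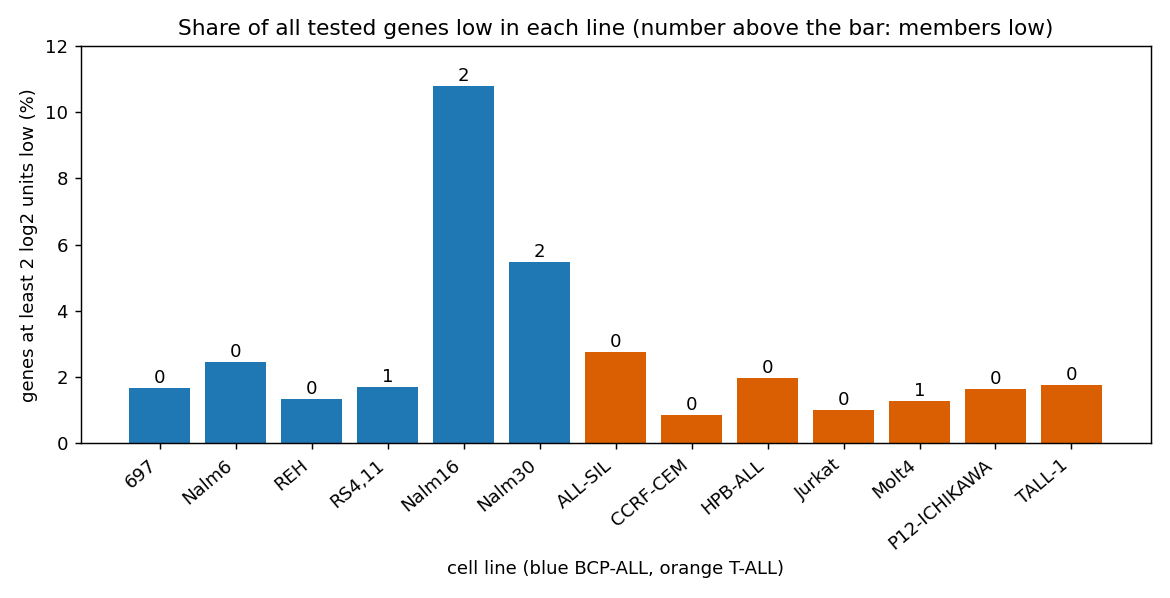
Share of the 12560 tested genes (%, vertical axis from 0) at least 2 log2 units below the median of the other 12 lines, for each line, with the number of members that were low above each bar. Nalm16 (10.8%) and Nalm30 (5.47%) stand above the other 11 lines, which are at 2.76% or less.

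**Figure D5:**
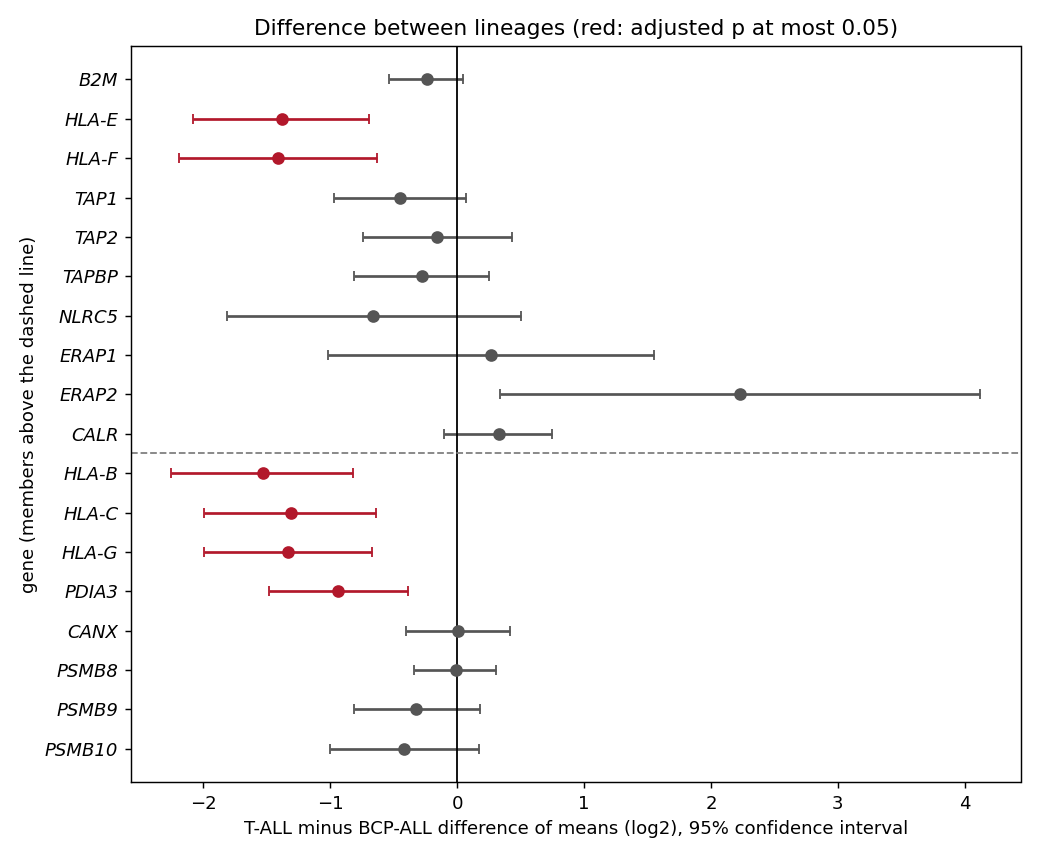
T-ALL minus BCP-ALL difference of means (log2) with its 95% confidence interval for the 10 members (above the dashed line) and 8 other genes of the pathway, red where limma's adjusted p was 0.05 or less. HLA-E (-1.38), HLA-F (-1.41), HLA-B (-1.53), HLA-C (-1.31), HLA-G (-1.33) and PDIA3 (-0.94) lie below 0, and the widest interval is that of ERAP2 (0.34 to 4.12).

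Over the 13 lines the members fell into no single pattern. Of 45 pairs of members, 5 had a Pearson r of 0.5 or more and 5 of -0.5 or less, and the median r was 0.025. These correlations describe 13 lines that share a lineage and, for the pair P12-ICHIKAWA and TALL-1, nearly the same profile, and the heavy chain probe sets can share sequence. HLA-E and HLA-F had the highest r of any pair, 0.801 (Spearman's rho 0.615), which was 0.645 within the 7 T-ALL lines and -0.354 within the 6 BCP-ALL lines. HLA-F and TAP1 had an r of 0.709, which was 0.79 within T-ALL and -0.128 within BCP-ALL. The r of HLA-E and ERAP2 was -0.698, the lowest of any pair, and it was -0.93 within BCP-ALL and -0.351 within T-ALL. ERAP1 and ERAP2 had an r of 0.577 over all lines, and it was -0.536 without Nalm16 and Nalm30.

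NLRC5 did not track the class I genes closely. Its r was 0.377 with HLA-E, 0.369 with HLA-F, 0.367 with HLA-B, 0.364 with HLA-C, 0.123 with B2M and -0.0135 with TAP1. On the probe sets used, CCRF-CEM, lowest in NLRC5, had the second lowest HLA-F and the third lowest HLA-E value. Nalm16 and Nalm30, at 5.47 and 5.73 in NLRC5, had HLA-E values among the 3 highest on the same probe set. Without Nalm16 and Nalm30, r was 0.736 with HLA-E and 0.601 with HLA-F, over 11 lines. In the same lines it was 0.602 with HLA-B and 0.635 with HLA-C, but 0.213 with B2M and 0.217 with TAP1. P12-ICHIKAWA and TALL-1, with the highest NLRC5 of T-ALL, had HLA-F values of 9.24 and 9.07, below every BCP-ALL line.

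For each member with an SD of at least 0.5 log2 units, the 3 genes with the highest Pearson r over the 13 lines were taken from 6612 genes. HLA-F was most like HLA-G (r = 0.989), the pseudogene HLA-J (r = 0.988) and the probe set annotated to PRB1 (r = 0.979), and all 3 were read from _x_at probe sets. HLA-E was most like TRIP6 (r = 0.923), PFKL (r = 0.903) and DDAH2 (r = 0.901). NLRC5 was most like LONRF1 (r = 0.817), MEF2A (r = 0.78) and EOGT (r = 0.764). The genes most like ERAP1 were RASGRP2 (r = 0.966), JMJD1C (r = 0.965) and ATG12 (r = 0.953), and without Nalm16 and Nalm30 their r was 0.934, 0.889 and 0.757. ERAP2 was most like CAND1 (r = 0.959), CMTR2 (r = 0.958) and TOP1 (r = 0.943), and without these lines r was 0.918, 0.96 and 0.846.

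Of 89 other genes of the pathway and related groups, 83 had a probe set of their own, 78 passed the filter and 18 were called between lineages, where 7.63% of all genes tested were. The count was 11 without Nalm16 and Nalm30, where 5.57% of 12102 genes were called. In the fit with all lines, the 18 calls included all 6 class II genes tested and 4 CD1 genes. HLA-B, HLA-C and HLA-G, read from _x_at probe sets, were also among these calls. At an unadjusted p under 0.05, limma called 25.3% of all genes tested, against which the counts of single groups at that p are to be read. Of 4 genes of the immunoproteasome and its activator, which interferon induces, 0 passed limma's test and 0 had an unadjusted p under 0.05. PSMB8 ran from 9.76 to 10.59 and differed by -0.01 between lineages, PSMB9 by -0.32 and PSMB10 by -0.42 (adjusted p = 0.964, 0.4 and 0.344). Without Nalm16 and Nalm30 these differences were 0.08, -0.08 and -0.25. PSMB9 was highest in Nalm16 and Nalm30, at 10.64 and 10.65, the lines lowest in ERAP1. Of 6 other peptidases, 0 passed limma's test, with 1 at an unadjusted p under 0.05. This was NPEPPS, a cytosolic aminopeptidase, with a difference of 0.62 (unadjusted p = 0.0363, adjusted p = 0.167), or 0.43 without Nalm16 and Nalm30.

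Of 10 regulators of class I genes tested, 0 passed limma's test, with 1 at an unadjusted p under 0.05. This was NFYB, a subunit of the factor that binds the CCAAT box, which was 5.68 in Nalm16 and 5.96 in Nalm30 and ran from 7.85 to 8.71 in the other 11 lines (difference 1.17, adjusted p = 0.0996). Without Nalm16 and Nalm30 its difference was 0.43 (adjusted p = 0.103). RFXAP, a subunit of the RFX complex that binds class I and class II promoters, was also lowest in these lines, at 6.21 and 7.38. IRF1, a factor induced by interferon, ran from 7.83 in Nalm6 to 9.68 in REH and differed by -0.2, or by 0.05 without Nalm16 and Nalm30. Polycomb repressive complex 2, which can silence class I genes, had 0 of 4 genes called by limma, with 2 at an unadjusted p under 0.05 (EZH1 and SUZ12). Its subunit SUZ12 was 7.55 in Nalm16 and 8.06 in Nalm30 and at least 9.96 elsewhere (difference 1.12, adjusted p = 0.169), and without these 2 lines its difference was 0.27 (adjusted p = 0.554).

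Among 12 other class I and class I-like chains tested, 1 was called lower in T-ALL and 4 higher. The lower one was HLA-G. The higher ones were the CD1 molecules CD1A, CD1B, CD1C and CD1E, which mark cortical thymocytes and also pair with beta-2 microglobulin. CD1B was at most 4.45 in BCP-ALL and ran from 4.25 in CCRF-CEM to 12.11 in HPB-ALL (difference 4.97, SE 0.992, adjusted p = 0.00765). CD1E was at most 4.18 in BCP-ALL and ran from 4.65 to 12.21 in T-ALL (difference 4.91, SE 1.06, adjusted p = 0.0123). CCRF-CEM and ALL-SIL were the 2 lowest T-ALL lines in CD1A, CD1B, CD1C and CD1E, while B2M was 12.09 and 12.52 in them. Without Nalm16 and Nalm30, CD1B kept its call (adjusted p = 0.034), and CD1A, CD1C and CD1E lost theirs (adjusted p from 0.0522 to 0.121).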

How the data were processed

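Total RNA from 13 untreated ALL lines was hybridized to 1 Affymetrix array each. The authors deposited values on a log2 scale, made with the iterPLIER+16 algorithm in Affymetrix Expression Console (version not stated), and the 16 added to each signal sets the floor at 4. Per the labels, cells were cultured for 30 h and RNA was extracted with phenol-chloroform and a silica column, while the methods name overnight culture and a spin-column kit. The scaling between arrays is not given in the sources. The table held 42450 probe sets, of which 38125 were annotated to 1 symbol, 1742 to several and 2583 to none, and the last 2 kinds were left out.

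A gene was read from its probe set of highest mean. The 12560 genes that exceeded the array median in 3 lines or more were tested for T-ALL against BCP-ALL with limma 3.58.1 (lmFit and eBayes, R 4.3.3) and Benjamini-Hochberg adjustment at 0.05. A two-sided exact permutation test over all 1716 assignments of lines to lineages was an alternative, with P12-ICHIKAWA and TALL-1 counted as separate lines. Tables and plots were made with pandas 2.3.3, matplotlib 3.10.9, scipy 1.17.1 and numpy 2.4.6 (Python 3.11.15). Of 128 genes in the fixed lists, 8 had no probe set of their own and were not analysed here. Named were the members with their probe sets, up to 4 genes of each other list with the smallest p, 9 class I, proteasome and regulator genes where measured, and the 3 genes most like each variable member. Others, such as CD1C and HSP90B1, were named after their values were seen. The members and lists were chosen with earlier results of these data known. Alternatives covered the probe set, normalization, the filter, the variance model, each line left out and closely related lines, and leaving out _x_at probe sets was added after the data were seen. Limma was tested on simulated data with known changes.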

Additional observations from a re-analysis of the deposited data

How the results depend on the processing

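The number of members called between lineages was 2, and 1 with the probe set of the highest SD, with the mean of all probe sets or with P12-ICHIKAWA and TALL-1 averaged, 0 without Nalm16 and Nalm30 or without _x_at probe sets, 4 by the exact permutation test at an unadjusted p of 0.05 (B2M and ERAP2 added), which 25.7% of all genes tested passed, and from 1 to 2 with each line left out. The 958 genes called between lineages became 614 with P12-ICHIKAWA and TALL-1 averaged and from 614 to 1226 with each line left out. The 18 calls among the other pathway and related genes, class II and CD1 included, became 11 without Nalm16 and Nalm30. Low values of the members numbered 6, and 7 against the median of the same lineage. They numbered 3 with the mean of all probe sets or at 3 log2 units, 2 without Nalm16 and Nalm30 and 16 at 1 log2 unit. The difference of TAP2 turned to 0.05 without REH (from -0.33 to 0.05 with each line left out), and that of ERAP1 to -0.78 without Nalm16 and Nalm30, -0.24 without Nalm16 and -0.07 without Nalm30 (from -0.24 to 0.54 with each line left out). The causes were not tested. The other 8 members kept their direction under every alternative fitted, B2M having no value with the probe set of the highest SD, which did not pass the filter. Single probe sets outside these alternatives could differ in direction. CALR differed by -0.02 on 214315_x_at. TAPBP differed by 0.14 on 210294_at and ERAP2 by -0.02 on 1554272_at, both near the floor in most lines. No paired analysis was possible because the replicate numbers of the lines were given in accession order and pair nothing. Signals near the floor limit what ERAP2, NLRC5 and 221978_at can show.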

Other observations

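Gene groups beside the class I pathway were read in the same lines. Of class II genes, 6 of 6 tested passed limma's test, all lower in T-ALL, with CD74, the invariant chain, 7.45 lower and HLA-DRA 6.58 lower. HLA-DPA1, at 6.13 in Nalm16 and 6.22 in TALL-1, overlapped between lineages. CIITA, the class II transactivator related to NLRC5, did not pass the filter and ran from 4.9 to 5.25 over the 13 lines. Of 18 interferon-stimulated genes tested, 2 passed, both lower in T-ALL: IRF7 by 1.54 (SE 0.284, adjusted p = 0.00459) and OAS1 by 0.93 (SE 0.261, adjusted p = 0.046), the latter without a call when Nalm16 and Nalm30 were left out (adjusted p = 0.117), and the median difference of the group was 0.06 against 0.03 over all genes. IFITM1 went the other way, 2.95 higher in T-ALL (adjusted p = 0.0784). Without Nalm16 and Nalm30 it was called (difference 4.16, adjusted p = 0.018).

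Of 13 endoplasmic reticulum chaperones and related genes, 2 passed limma's test, both lower in T-ALL. PDIA6, a disulfide isomerase, was 0.98 lower (SE 0.151, adjusted p = 0.0013), and XBP1, a transcription factor of the unfolded protein response and of secretory B-lineage cells, was 3.86 lower (SE 0.939, adjusted p = 0.0235; 0.069 without Nalm16 and Nalm30). In T-ALL, XBP1 was 10.14 in ALL-SIL, 9.45 in CCRF-CEM and 9.2 in Jurkat, and it was between 4.22 and 5.78 in the other 4 lines. HSP90B1, which codes for the chaperone GRP94, was 5.75 in Nalm16 and 6.83 in Nalm30 and at least 7.98 elsewhere. CALR was 9.97 and 10.21 in these lines on the _x_at probe set used for it. On its second _x_at probe set, 214315_x_at, it was 10.11 in Nalm16, the highest line, and 9.69 in Nalm30. On 200935_at CALR was 7.07 in Nalm16 and 7.4 in Nalm30, at the low end of a range from 7.06 to 9.23, so its probe sets did not agree.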
